A study of Homo sapiens with 3 samples.

Results

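Dense AP-1 peak clusters are stretches of the genome in which peaks of Fra-1 and Fra-2 chromatin immunoprecipitation followed by sequencing (ChIP-seq) lie close together. Overlapping peaks of the 2 lists on the 22 autosomes were merged into union peaks, and those within 1 Mb of an unsequenced run of at least 1 Mb were dropped. Union peaks whose neighbouring centres lay at most 12500 bp apart were stitched, and stitched groups of at least 4 peaks were called clusters. The rule gave 232 clusters with 1209 member peaks, which is 9.09% of the 13307 union peaks kept. The other 12098 union peaks stood alone or in groups of 2 or 3. Members were thus chosen by the positions of the peaks in both lists, so density, cluster size and span are descriptions and carry no test.

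The cells were MDA-MB-231, a human triple-negative breast cancer line with mesenchymal features, grown with 10% serum. The samples were a Fra-1 ChIP, a Fra-2 ChIP and input DNA from the same untreated cells, and the input was not used here. The labels mention 2 replicates, but each antibody has 1 peak list with start and end positions alone, so no spread between replicates, peak height or depth is known. The Fra-1 list held 9998 peaks, of which 9679 were autosomal, and the Fra-2 list held 13003, of which 12695 were autosomal.

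Fra-1 (gene FOSL1) and Fra-2 (FOSL2) are FOS-family members of the transcription factor AP-1. They bind DNA as dimers with a JUN protein at the 7-base element TGAGTCA, which reads TGACTCA on the opposite strand. In cells with active RAS and MAPK signalling, AP-1 mostly occupies enhancers far from promoters, often beside elements of TEAD factors, and is known for driving invasion and mesenchymal genes in breast cancer cells. Several enhancer-like sites near 1 gene are often described together as an enhancer cluster; no chromatin mark was measured here, so the clusters are peak clusters and nothing more.

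The cluster with the most AP-1 elements lay beside KLF6, which encodes a zinc-finger transcription factor induced by growth and injury signals. It held 8 union peaks over 28.2 kb (chr10:3797251-3825401), and 5 of the 8 had an AP-1 element within 100 bp of the centre, with 8 copies in all. Its member sequences are shown because they let the dense and the empty members be read side by side, with each AP-1 element in capitals. A peak wider than 300 bases is shown by its central 300, and the member that touches an exon (peak 7) is not shown.
KLF6 peak 1 (chr10:3797276-3797575, hg19, plus strand): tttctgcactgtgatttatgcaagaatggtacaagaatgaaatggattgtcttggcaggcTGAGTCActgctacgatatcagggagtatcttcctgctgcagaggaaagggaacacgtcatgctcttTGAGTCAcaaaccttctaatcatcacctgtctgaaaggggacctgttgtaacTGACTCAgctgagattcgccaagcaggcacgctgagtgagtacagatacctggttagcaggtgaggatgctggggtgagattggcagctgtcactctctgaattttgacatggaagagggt
KLF6 peak 2 (chr10:3797801-3798050, hg19, plus strand): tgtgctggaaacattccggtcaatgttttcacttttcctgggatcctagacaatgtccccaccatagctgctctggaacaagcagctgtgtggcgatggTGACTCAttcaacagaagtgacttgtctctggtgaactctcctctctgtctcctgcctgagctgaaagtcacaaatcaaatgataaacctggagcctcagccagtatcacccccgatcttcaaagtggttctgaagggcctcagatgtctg
KLF6 peak 3 (chr10:3804251-3804350, hg19, plus strand): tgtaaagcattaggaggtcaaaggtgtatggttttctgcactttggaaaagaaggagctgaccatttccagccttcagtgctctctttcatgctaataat
KLF6 peak 4 (chr10:3805401-3805700, hg19, plus strand): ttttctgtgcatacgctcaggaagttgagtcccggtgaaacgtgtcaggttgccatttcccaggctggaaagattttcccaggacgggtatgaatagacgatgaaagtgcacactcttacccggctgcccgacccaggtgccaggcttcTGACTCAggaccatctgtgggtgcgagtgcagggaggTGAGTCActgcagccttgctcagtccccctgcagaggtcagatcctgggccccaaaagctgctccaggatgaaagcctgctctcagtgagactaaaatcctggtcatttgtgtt
KLF6 peak 5 (chr10:3806151-3806250, hg19, plus strand): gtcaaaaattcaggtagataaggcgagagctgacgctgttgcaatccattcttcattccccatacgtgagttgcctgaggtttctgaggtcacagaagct
KLF6 peak 6 (chr10:3817551-3817750, hg19, plus strand): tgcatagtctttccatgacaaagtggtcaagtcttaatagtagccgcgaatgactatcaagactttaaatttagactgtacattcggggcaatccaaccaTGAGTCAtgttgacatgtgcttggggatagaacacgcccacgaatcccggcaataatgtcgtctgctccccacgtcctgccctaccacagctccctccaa
KLF6 peak 8 (chr10:3825101-3825400, hg19, plus strand): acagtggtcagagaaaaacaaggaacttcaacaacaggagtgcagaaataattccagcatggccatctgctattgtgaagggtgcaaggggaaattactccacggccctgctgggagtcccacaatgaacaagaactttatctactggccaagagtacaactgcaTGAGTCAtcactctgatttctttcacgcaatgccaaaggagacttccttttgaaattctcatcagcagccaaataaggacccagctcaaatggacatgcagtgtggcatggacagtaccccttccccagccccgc

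Peak 1 of KLF6 held 3 elements and peak 4 held 2, and both were called in both lists. Peaks 3 and 5 held none and were 100 bp wide. Peak 3 was called in both lists, and peak 5 in the Fra-1 list only. Peak 6, with 1 element, was called in the Fra-2 list only. Elements thus occurred in shared and in list-specific members of a single cluster. The member nearest to the KLF6 transcription start site (TSS) was peak 8, in an intron 2.13 kb from it. A second KLF6 cluster of 4 peaks spanned 5.2 kb on the other side of the gene, with its nearest member 20.1 kb from the TSS and elements in 2 of its 4 members.

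The PLAU cluster gave a second contrast within 1 cluster. PLAU encodes urokinase, a secreted protease that activates plasminogen and is a textbook AP-1 target. Its 7 union peaks spanned 22.0 kb (chr10:75647201-75669151), with 5 called in both lists, 2 in the Fra-2 list only and none in the Fra-1 list only. The AP-1 element was present in peaks 1 to 5 and absent from both members nearest to the gene, peak 6 at 2.31 kb from the TSS and peak 7, whose centre lay 0.041 kb from it. The TEAD element, GGAATGC or GGAATGT, was present in peaks 1, 2 and 5. Peak 4, with 2 AP-1 elements, and peak 6, with none, are shown as the pair that differ.
PLAU peak 4 (chr10:75654351-75654600, hg19, plus strand): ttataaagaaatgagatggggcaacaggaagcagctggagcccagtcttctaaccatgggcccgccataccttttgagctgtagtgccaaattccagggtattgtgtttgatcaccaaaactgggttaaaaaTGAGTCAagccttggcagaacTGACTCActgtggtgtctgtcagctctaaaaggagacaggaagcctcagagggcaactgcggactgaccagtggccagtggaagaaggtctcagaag
PLAU peak 6 (chr10:75666501-75666750, hg19, plus strand): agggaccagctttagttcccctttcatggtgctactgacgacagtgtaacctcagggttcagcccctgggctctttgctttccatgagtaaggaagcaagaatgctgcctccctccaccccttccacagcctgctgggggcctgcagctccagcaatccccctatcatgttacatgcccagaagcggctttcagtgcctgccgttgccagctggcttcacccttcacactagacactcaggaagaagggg

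Clusters of 4 peaks were the most common, with 152 of the 232, followed by 37 clusters of 5, 26 of 6, 6 of 7 and 5 of 8. Another 6 clusters held 14, 15, 18, 18, 41 and 72 peaks, and these 6 contained 178 members, which is 14.7% of all members. Just outside the rule were 421 groups of 3 peaks. The median span was 14.6 kb (95% interval from order statistics 13.2 to 16.1 kb, n = 232), with quartiles of 9.48 and 21.4 kb and a range of 1.3 to 43.1 kb. Among the 226 clusters of at most 8 peaks the median span was 14.3 kb and the largest 32.6 kb, at BDH1, which encodes a mitochondrial ketone body enzyme. Most of a cluster lay between its peaks: members covered 6.87% of the summed span of 3524 kb.

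Neighbouring member centres lay a median of 2125 bp apart, with quartiles of 550 and 5950 bp. The largest spacing inside a cluster was 12475 bp, and the smallest spacing that ended one was 12525 bp. Member peaks were 100 to 750 bp wide, with a median of 150 bp against 200 bp for other union peaks. In clusters of at most 8 peaks the median width was 200 bp. Widths of at least 300 bp were found in 19.8% of all members and in 15% of other union peaks. In clusters of at most 8 peaks the share was 23%.

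Chromosome 10 carried the most clusters, 30, and 15.1% of its 942 union peaks were members. Chromosome 1 followed with 24 clusters, chromosome 5 with 21, chromosome 3 with 20, chromosome 11 with 19 and chromosome 17 with 16. Per 100 Mb of chromosome the order was chromosome 10 with 22.1, chromosome 17 with 19.7 and chromosome 20 with 19.0. Chromosomes 4, 13 and 22 had 2 clusters each, and chromosomes 18 and 21 had 1 each. Chromosome 16 had the highest share of its union peaks in clusters, 20.3%, with 81 members in only 8 clusters. Most of these members lay in 1 stretch (chr16:33865351-34022901), in clusters of 41, 15 and 4 peaks. Of those peaks 19, 15 and 4 were repeat-like, with over 20% of the 10-base words around them recurring. The copy number of each chromosome in these cells was not measured, and its part in these counts was not tested.

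Of the 1209 members, 751 were called in both lists (62.1%, exact 95% interval 59.3 to 64.9%), 142 in the Fra-1 list only (11.7%) and 316 in the Fra-2 list only (26.1%). Among the other union peaks the shares were 50.4% in both lists, 13.3% in the Fra-1 list only and 36.3% in the Fra-2 list only. The intervals cover counting error only and treat peaks as separate draws, although members of a cluster are neighbours. The members took in 896 of the 8628 Fra-1 peaks kept (10.4%) and 1069 of the 11583 Fra-2 peaks kept (9.23%). Because the rule counts peaks of both lists, the composition was not tested.

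Clusters that drew on 1 list alone were few. Among other union peaks 50.4% were called in both lists and 13.3% in the Fra-1 list only. Counts by cluster depend on these shares and on cluster size, so they are not read as a trait of clusters. In 31 clusters every member was called in both lists, and 7 clusters had no member in both lists. A Fra-1-only member was lacking in 140 clusters, and a Fra-2-only member in 57. More Fra-1 than Fra-2 peaks were found in 42 clusters, more Fra-2 than Fra-1 peaks in 136, and as many of each in 54. Of the 232 clusters, 102 held at least 4 Fra-1 peaks and 173 held at least 4 Fra-2 peaks, in a comparison of lists of unequal length. Every cluster held a Fra-2 peak, and 2 held no Fra-1 peak. Those 2 lay in introns of IQGAP1, a scaffold protein of the actin cytoskeleton, and of VANGL1, a planar cell polarity membrane protein, and each had 4 Fra-2 peaks, 3 of them with an AP-1 element. Both were singled out after their values were seen.

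**Figure D1:**
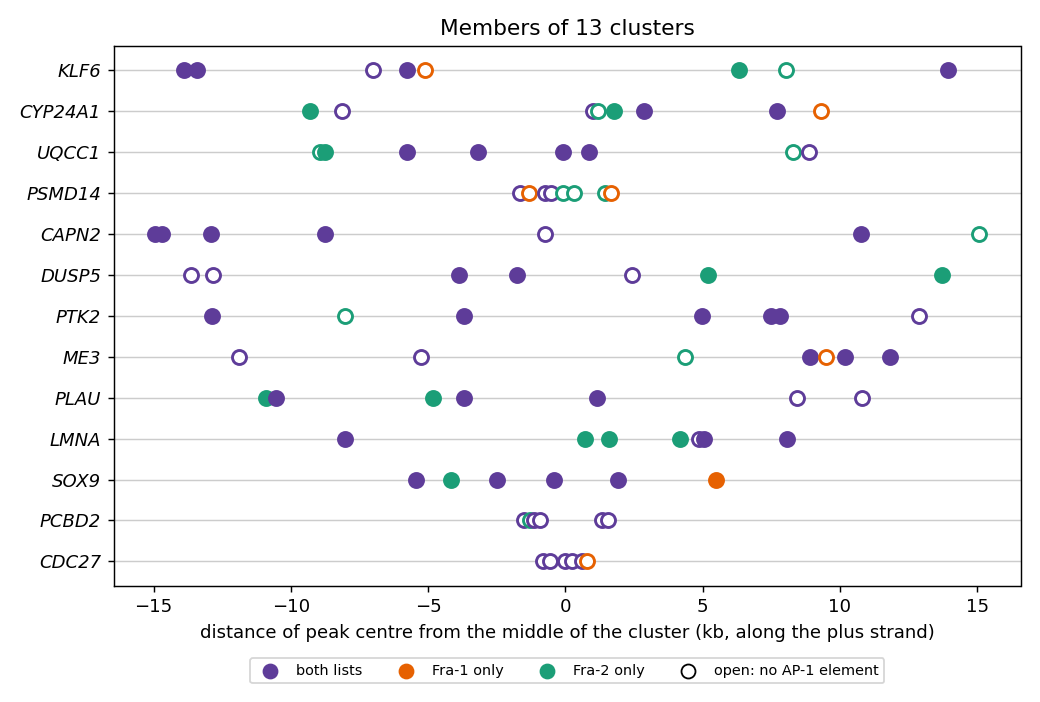
Distance of each member's centre from the middle of its cluster (kb, x axis) for 13 clusters named by their nearest or host gene (y axis); colour gives the list in which the peak was called, and open points have no AP-1 element within 100 bp. KLF6 and CAPN2 members spread over about 28.2 and 30.3 kb, while all members of PCBD2 and CDC27 lie within 3.2 and 1.7 kb and are open.

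The AP-1 element was less frequent in cluster members than in other union peaks. It lay within 100 bp of the centre in 661 of 1209 members (54.7%, exact 95% interval 51.8 to 57.5%), against 8694 of 12098 other union peaks (71.9%, 71.1 to 72.7%). The share over all union peaks was 70.3%. The ratio of members over others was 0.761 (95% interval 0.722 to 0.802, adjusted p = 1.81e-32, two-sided Fisher exact test with Benjamini-Hochberg adjustment over 8 motifs). This test takes neighbouring peaks as independent, so its p-value is too small. With 1 member kept per cluster, the one nearest to its middle, 138 of 232 had the element (59.5%, adjusted exact p = 0.000521).

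Much of the difference sat in the 6 clusters of over 10 peaks, where 5 of 178 members (2.81%) had the element. Without these clusters, which were set aside after their values were seen, 656 of 1031 members had it (63.6%), against 71.9% of other union peaks (adjusted exact p = 3.15e-07). After removal of every union peak with a 32-base word found elsewhere in the genome and a new stitching, the shares were 64.0% of 745 members and 72.0% of other union peaks (adjusted exact p = 3.63e-05). Members in clusters of at most 8 peaks thus also had the element less often than other union peaks as a whole. Both tests again take neighbouring peaks as independent, so their p-values are too small. Of the 1031 members, 73 lay in clusters with a median spacing of at most 500 bp, and 19 of these had it (26.0%). At wider spacings the shares were 65.7% to 67.6%, against 67.3% and 67.2% in groups of 2 and 3. Spacing limits were picked after the values were seen.

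The share with the element was highest among peaks that stood alone, while the share called in both lists was lowest there. Among peaks that stood alone 74.4% had the element (73.4 to 75.3%, n = 7813), among groups of 2 it was 67.3%, among groups of 3 it was 67.2%, in clusters of 4 it was 65.8% (61.9 to 69.6%, n = 608) and in clusters of 5 to 8 it was 60.5% (55.7 to 65.2%, n = 423). The shares called in both lists were 47.5%, 55.4%, 56.4%, 61.5% and 59.3% in the same order, and 70.8% in clusters of over 10 peaks. From groups of 2 up to clusters of 5 to 8, each interval for the element overlapped that of the next size. Clusters of 5 to 8 peaks took in the element-free clusters at PSMD14, CENPC, PCBD2 and CDC27, with 8, 8, 6 and 6 members. Their part in the lower share at that size was not tested.

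**Figure D2:**
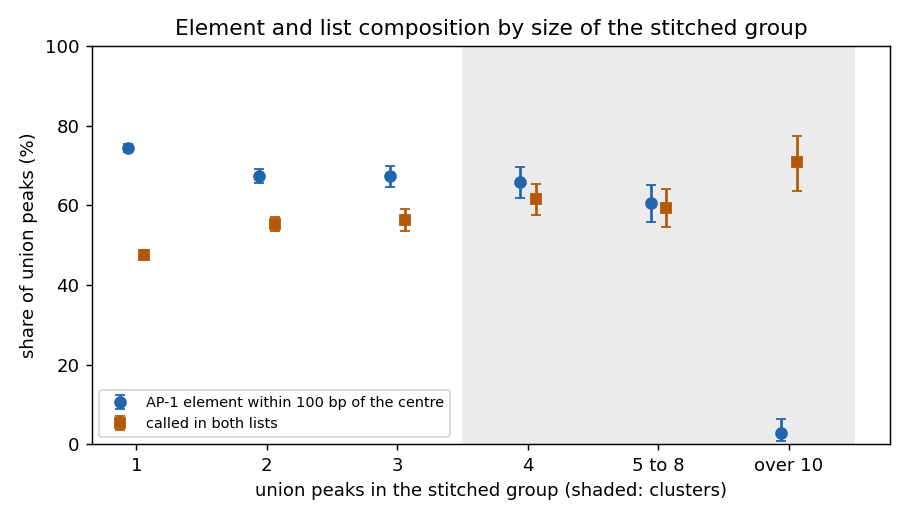
Share of union peaks (%, y axis) with the AP-1 element (circles) or called in both lists (squares) by the number of peaks in the stitched group (x axis); bars are exact 95% intervals. The element share is 74.4% for peaks that stand alone, 65.8% in clusters of 4 and 2.81% in clusters of over 10 peaks, where 70.8% of peaks are in both lists.

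The class of a member went with its element content. The element was present in 53.5% of members called in both lists, in 26.8% of Fra-1-only members (19.7 to 34.8%, n = 142) and in 69.9% of Fra-2-only members (64.6 to 74.9%, n = 316). In clusters of at most 8 peaks these shares were 63.5%, 33.6% and 75.4%. Other union peaks had the same order at higher levels, with 72.5% in both lists, 43.8% for Fra-1 only and 81.3% for Fra-2 only. The TEAD element ran the other way in members: it was present in 16.9% of Fra-1-only members (11.1 to 24.1%) and in 5.06% of Fra-2-only members (2.92 to 8.09%). Other union peaks had it in 16.0% of the Fra-1-only and 9.00% of the Fra-2-only class.

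Elements stood near the peak centre in clusters as elsewhere. The nearest element lay a median of 22.5 bp from the centre in the 661 members that had one, against 20.5 bp in the 8694 other union peaks. At least 2 elements were found in 98 members (8.11%) and in 1574 other union peaks (13%). Of the 1344 copies of the element inside cluster spans, 779 lay in member peaks (58.0%). The remaining 565 lay between members, at 1.72 per 10 kb against 1.62 per 10 kb over the autosomes, so sequence between the peaks carried the element at about its genomic density. Element copies in members had A or G before the 7 bases and C or T after them in 44.2% of cases (40.6 to 47.8%, n = 765 copies), against 50.4% (49.4 to 51.3%, n = 10468) in other union peaks.

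Of the 7 other elements sought, on both strands within 100 bp, the C/EBP element TTGCNCAA alone differed at an adjusted p under 0.05. It was present in 27 members (2.23%) against 3.71% of other union peaks and 3.58% of all union peaks (adjusted p = 0.0286, two-sided Fisher exact test). That call was lost without the clusters of over 10 peaks (2.33%, adjusted exact p = 0.0924). It was also lost with 1 member per cluster (2 of 232, adjusted exact p = 0.0777) and without peaks holding words found elsewhere (2.55%, adjusted exact p = 0.465). The TEAD element was present in 11.4% of members against 12% of other union peaks, with 11.9% overall (adjusted exact p = 0.812), and 104 clusters had at least 1 member with it. The RUNX element, TGCGGTT or TGTGGTT, was present in 6.95% of members against 8.01% of others, with 7.91% overall (adjusted exact p = 0.398). The FOXA element, TATTTAC or TGTTTAC, was present in 6.87% of members against 8.36% of others, with 8.22% overall (adjusted exact p = 0.210). CAGGTG, an E-box read by repressors such as ZEB, was present in 13.3% of members against 12.3% of others, with 12.4% overall (adjusted exact p = 0.503). Full CRE copies (TGACGTCA, the cyclic AMP response element) were found in 4 members, against 0.421% of all union peaks, and the ETS element CCGGAAGT in 5 members, against 0.391%. A match describes the letters in a window and not a bound site.

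**Figure D3:**
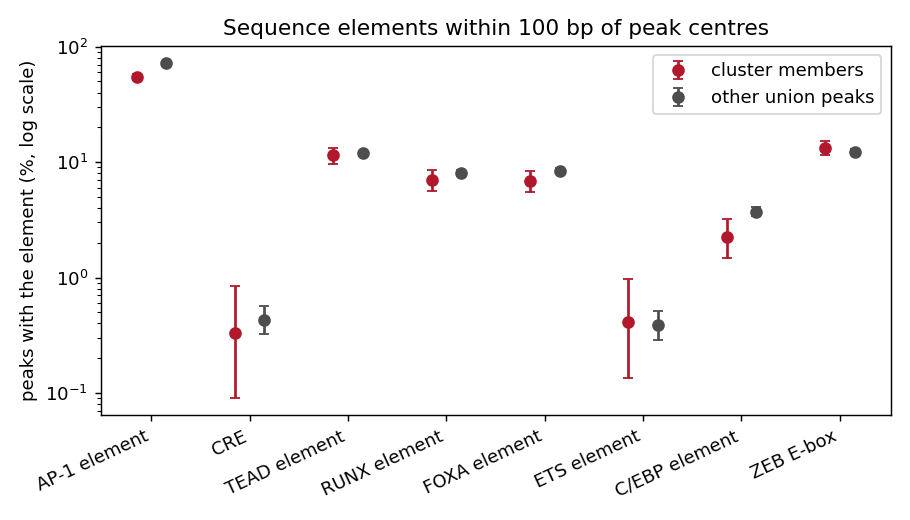
Share of peaks with each of 8 elements within 100 bp of the centre (%, log scale, y axis) for cluster members (left) and other union peaks (right); bars are exact 95% intervals. Intervals are apart for the AP-1 element (54.7% against 71.9%) and for C/EBP (2.23% against 3.71%), and overlap for the other 6.

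Clusters differed widely in element content. All members had the AP-1 element in 46 clusters, 50% or more had it in 187, and none had it in 13. The 12 clusters with a median spacing under 450 bp stood apart, with the element in 4 of 189 members (2.12%, 0.580 to 5.33%). In the 7 clusters spaced 450 to 500 bp it was present in 19 of 29 members (65.5%, 45.7 to 82.1%). Of the 218 members in clusters spaced at most 500 bp, 145 belonged to 4 clusters of over 10 peaks. At wider median spacing, clusters of at most 8 peaks had the element at nearly level shares: 66.7% of members at 500 to 1000 bp, 65.7% at 1000 to 2000 bp, 65.7% at 2000 to 4000 bp, 67.6% at 4000 to 8000 bp and 67.3% at 8000 to 12500 bp. With clusters of every size, the shares were 56.1% at 500 to 1000 bp and 61.2% at 1000 to 2000 bp. These groupings by spacing were chosen after the values were seen.

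**Figure D4:**
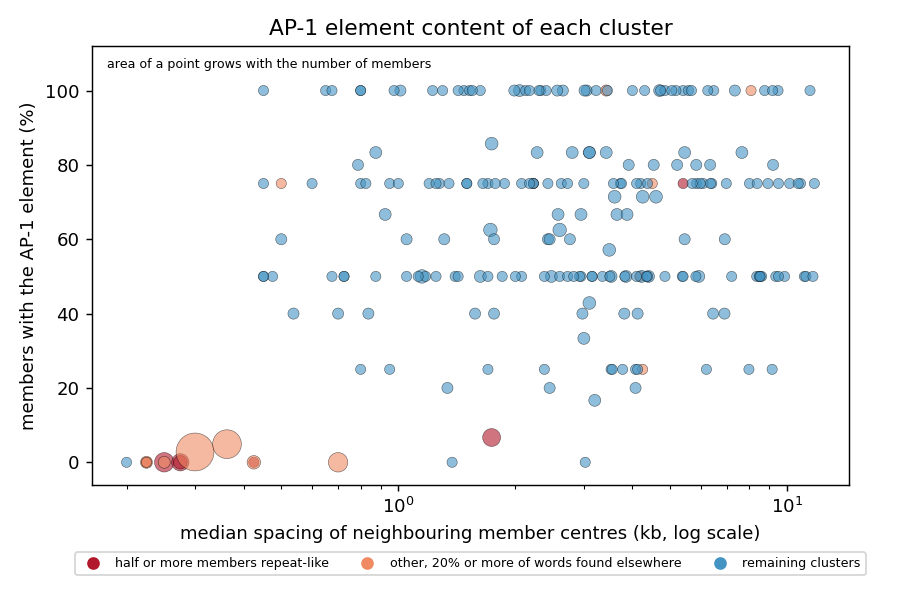
Median spacing of neighbouring member centres (kb, log scale, x axis) and share of members with the AP-1 element (%, y axis) for each of 232 clusters; point area grows with the number of members, and colour marks repetitive sequence. Clusters at the far left, including those of 72 and 41 peaks and the chromosome 18 cluster of 18 peaks, lie at or near 0%. The chromosome 9 cluster of 18 peaks, with a median spacing of 700 bp, lies at 0% as well. Most clusters spaced above 1 kb lie at 50% or more.

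Repeated sequence was common in tightly spaced clusters, with 95 repeat-like members among the 218 in clusters spaced at most 500 bp. Repeat-like windows, in which over 20% of 10-base words within 1 kb of the centre recur, held 118 members (9.76%) against 176 other union peaks (1.45%). A 32-base word found elsewhere in the genome was present in 298 members (24.6%) against 1736 other union peaks (14.3%). The largest cluster had 72 peaks over 43.1 kb on chromosome 2 (chr2:132996151-133039201), with ANKRD30BL as its nearest gene at 76.7 kb. It had 29 repeat-like members and the element in 2. The next had 41 peaks over 33.2 kb on chromosome 16 (chr16:33950051-33983201), and 19 of them were repeat-like, with the element in 2. Clusters of 18 peaks lay on chromosome 9 (chr9:68414201-68431601) and near the start of chromosome 18 (chr18:106651-111601, 46.9 kb from USP14). Neither held an element, and all 18 members of the chromosome 18 cluster were repeat-like and called in both lists.

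In the 13 clusters with no element there were 102 members. Of these clusters, 12 held words found elsewhere, 5 held repeat-like members and 2 matched the mitochondrial genome of the reference. A single such word in 1 member was enough to count a cluster, and clusters with the element held them too, such as F3 and PTK2. By peak, they were present in 24.6% of all members and 14.3% of other union peaks. In the 12 clusters the mean share of words found elsewhere ran from 6.51% at ATOX1 to 77.5% at USP14. All 6 members of a cluster in an intron of PCBD2 (chr5:134259701-134262901), which encodes a cofactor of the transcription factor HNF1, matched the mitochondrial sequence at 92.9 to 98.0% identity. All 4 members of a cluster near the start of chromosome 1 (chr1:566601-570101, 52.0 kb from OR4F16) matched it at 96.0 to 100% identity. These were all of the 10 members that matched, with 2 more among the other union peaks. How reads from mitochondrial or repeated sequence were placed is not given in the sources used here, and its part in these peaks was not tested. Another 6 members lay within 1.7 kb at CDC27 (chr17:45213001-45214701), a subunit of the anaphase-promoting complex, where 33.4% of words were found elsewhere. The 8 members near PSMD14, a proteasome deubiquitinase, lay within 3.45 kb (chr2:162135351-162138801), with 59.4% of words found elsewhere. A member of the PCBD2 cluster is shown for contrast with the KLF6 and PLAU sequences, and it has no element to capitalise.
PCBD2 peak 1 (chr5:134259701-134259850, hg19, plus strand): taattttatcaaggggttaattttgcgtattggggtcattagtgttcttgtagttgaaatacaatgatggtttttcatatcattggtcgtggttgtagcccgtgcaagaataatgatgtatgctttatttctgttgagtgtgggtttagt

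Among the element-free clusters, only LPP cluster 1 (chr3:187980851-187991051) had neither a repeat-like member nor a word found elsewhere. Its 4 members lay in introns of LPP, a focal adhesion and zyxin-family protein. Of its members 3 were called in both lists and 1 in the Fra-1 list only. A second LPP cluster of 4 peaks, all in both lists, had the element in 2 members. The element-free ATOX1 cluster came close to LPP cluster 1. It had no repeat-like member, and words found elsewhere in peak 3 alone (26.0% of that peak's words).

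Members were more often intergenic than other union peaks. They fell outside genes in 59.5% of cases (56.6 to 62.3%) against 47.0% of other union peaks and 48.1% of all union peaks (adjusted p = 5.26e-16, two-sided Fisher exact test with Benjamini-Hochberg adjustment over 4 position classes). Introns held 33.0% of members against 43.6% of others, with 42.7% overall (adjusted exact p = 1.33e-12). Promoters, taken as 1 kb to either side of a coding transcript's start, held 58 members (4.80%) against 6.03% of others, with 5.91% overall (adjusted exact p = 0.128), and exons held 2.73% against 3.36%, with 3.31% overall (adjusted exact p = 0.272). Without the clusters of over 10 peaks the intergenic share of members was 54.5% (adjusted exact p = 1.54e-05), and with 1 member per cluster the difference no longer passed (adjusted exact p = 0.056).

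By cluster, 110 of 232 had every member outside genes, 101 had a protein-coding gene around 50% or more of their members, and 29 had a promoter member. No TSS lay within 100 kb of any member in 37 clusters. The nearest member of a cluster lay a median of 22.2 kb from a TSS. Counted by peak, the median distance was 37.2 kb for members and 31.3 kb for other union peaks.

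Apart from KLF6, PLAU and the clusters in repeated sequence, the clusters of 7 or 8 peaks were labelled by 7 genes. A label is the host gene or the gene with the nearest TSS. Near CYP24A1, which encodes the vitamin D 24-hydroxylase, 8 peaks spanned 18.7 kb, all intergenic and the nearest 30.9 kb from the TSS, with 4 in both lists, 1 Fra-1 only and 3 Fra-2 only, and with the element in 4. Inside UQCC1, an assembly factor of respiratory complex III, 8 peaks spanned 18.0 kb, and 5 had the element with 7 copies in all. These 2 clusters and KLF6 cluster 1 share a size of 8 peaks and differ in place, intergenic at CYP24A1 and within the gene at UQCC1.

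CAPN2, encoding the calpain protease that cleaves adhesion proteins, had 7 peaks over 30.3 kb, 2 of them at promoters and 5 in introns. Of these, 6 were in both lists and 1 was Fra-2 only, and 5 had the element. Near DUSP5, the nuclear ERK phosphatase induced by ERK signalling itself, 7 intergenic peaks spanned 27.6 kb and began 71.8 kb from the TSS. Their widths of 150 to 500 bp included a member of 500 bp in both lists, without the AP-1 element and with the TEAD element. Near PTK2, encoding focal adhesion kinase, 7 intergenic peaks spanned 26.1 kb, 6 of them in both lists and 5 with the element. Between ME3, a mitochondrial malic enzyme, and PRSS23, 7 peaks spanned 24.1 kb and 3 had the element. The ME3 TSS lay 47.341 kb from peak 1, and the PRSS23 TSS 47.375 kb from peak 7. Peaks 3 to 7, which include the members with the element, lay nearer to PRSS23, so the label ME3 rests on a small difference. At LMNA, which encodes the nuclear lamins A and C and was added after its values were seen, 7 peaks spanned 16.4 kb, 4 of them at promoters and 6 with the element.

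The densest clusters outside repeat-like sequence were CDC27 with 35.3 peaks per 10 kb, and EPHB6 and RPTOR with 25.8 each. EPHB6 encodes an ephrin receptor without kinase activity, and RPTOR the scaffold of the mTORC1 kinase complex. The EPHB6 and RPTOR clusters each had 4 peaks over 1.55 kb and no word found elsewhere, and the element was present in 2 members at EPHB6 and in 3 at RPTOR. Tight spacing thus also occurred with the element in unique sequence. In the FOSL1 neighbourhood, 6 peaks spanned 24.7 kb (chr11:65658901-65683551), with 4 in both lists and 2 Fra-1 only. The member nearest to the FOSL1 TSS lay 0.983 kb from it, was called in both lists and had 1 element. FOSL1 encodes Fra-1 itself, and this cluster had no Fra-2-only member.

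Of the 46 clusters with the element in every member, SOX9 and PRTFDC1 were picked after their values were seen. Near SOX9, a developmental transcription factor, all 6 members over 11.2 kb had it, 265 kb or more from the nearest TSS. All 6 intronic members at PRTFDC1 had it as well.

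Among 18886 autosomal protein-coding genes, 574 (3.04%) had a TSS within 100 kb of a cluster member, and 14 of these lay near 2 clusters. KLF6 had 12 member peaks within 100 kb, SMURF2 and ERGIC1 9 each, and CDCA4, ATXN1, SMAD3, AHNAK2, CLBA1, DUSP1, LPP, GPR132 and PLD4 8 each. ZFP36L1 had 6 and KIAA1755 had 5. Neighbouring genes share clusters here: DUSP1 with ERGIC1, and CDCA4, AHNAK2, CLBA1, GPR132 and PLD4 around the same pair of clusters on chromosome 14.

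Gene lists of adhesion, signalling and mesenchymal function were compared with that share of 3.04% by count alone. The lists were chosen with earlier results of these data known, so a count above that share is a description and no support for a link. Of 19 focal adhesion and actin genes, 5 lay near a cluster: PTK2, LPP, MICAL2, which oxidises actin, VCL (vinculin) and ACTN1 (alpha-actinin). The MICAL2 cluster had 6 intronic peaks, the nearest 1.59 kb from the TSS, while VCL and ACTN1 lay 88.9 and 95.9 kb from clusters labelled by PLAU and ZFP36L1. Of 20 integrin and basal genes, 4 were near a cluster. LAMB3, a laminin-332 chain, had a member 0.012 kb from its TSS, called in the Fra-2 list only and with the element. ITGA3 (integrin alpha 3) had a member at 3.47 kb, ITGB1 (integrin beta 1) at 8.99 kb and ITGB4 (integrin beta 4) at 14.1 kb.

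Of 23 YAP/TAZ and TEAD target genes, 4 lay near a cluster, and all 23 lay within 100 kb of some union peak, as did 11429 of all 18886 genes (60.5%) and 70% to 89.5% of each of the other 9 lists with a gene near a cluster. MYOF, a membrane repair protein, had 6 intronic members with the nearest 6.18 kb from the TSS, F3 (tissue factor) had 6 members from 64.2 kb, AMOTL2 (a YAP inhibitor) had 4 from 35.2 kb, and FOXF2 had 4 from 40.8 kb. Of 20 TGF-beta pathway genes, 3 were near a cluster. SMAD3, which carries the TGF-beta signal to DNA and binds AP-1, had 8 members in 2 clusters, the nearest in an intron 1.49 kb from a TSS and 6 of the 8 with the element. SMURF2, the ubiquitin ligase that limits this signal, had 9 members in 2 clusters, 8 of them with the element and 8 with words found elsewhere. LTBP2, a latent TGF-beta binding protein relative, had 4 members in both lists within 4.4 kb, all with the element.

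Of 24 EGFR, RAS and MAPK genes, 3 were near a cluster: DUSP1 and DUSP5, phosphatases that switch off MAP kinases, and HBEGF, an EGFR ligand with the nearest member 23.1 kb away. Among 20 mesenchymal genes were LOXL2, a collagen cross-linking oxidase, with 4 intronic members, and SPARC, a matrix protein 53.0 kb from the element-free ATOX1 cluster. Among 20 cytokines were LIF at 34.0 kb and CSF1 at 71.3 kb. The count was 1 of 20 AP-1 and ATF genes (FOSL1), 1 of 19 proteases and inhibitors (PLAU) and 1 of 20 partner transcription factors (KLF6).

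None of 19 luminal, 20 cell cycle, 18 ribosomal protein, 20 hepatocyte, 18 neuron and 19 blood cell genes lay near a cluster. Of the same lists, 15 luminal, 12 cell cycle, 14 ribosomal protein, 8 hepatocyte, 8 neuron and 12 blood cell genes had some union peak within 100 kb. In percent of each list these were 78.9% of luminal, 60% of cell cycle, 77.8% of ribosomal protein, 40% of hepatocyte, 44.4% of neuron and 63.2% of blood cell genes, beside 60.5% of all genes. With lists of 18 to 24 genes and 3.04% of all genes near a cluster, a count of 0 is close to the general share.

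**Figure D5:**
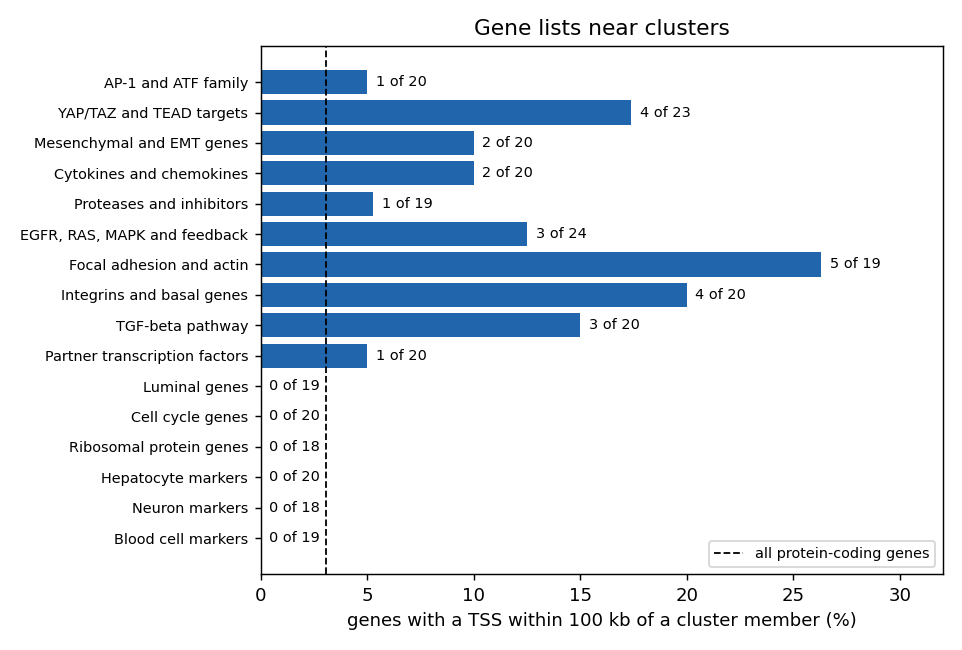
Genes of each list lying within 100 kb of a cluster member (% of the list, x axis), with counts beside the bars and the share of all protein-coding genes (3.04%) as a dashed line. Focal adhesion and actin genes have 5 of 19 and integrins and basal genes 4 of 20, while 6 lists have 0. The lists were chosen with earlier results of these data known.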

How the data were processed

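ChIP-seq of Fra-1 and Fra-2 and an input library were made in MDA-MB-231 cells. For each antibody the authors deposited a list of peak positions (chromosome, start, end) and no other values, such as counts or scores. The submitters' processing notes name Bowtie2 and hg19, without versions; the peak caller and its threshold, and how repeated sequence and replicates were treated, are not given here by any label or file header. Positions fall on a grid of 50 bp and were taken as 1-based, with the end position itself left out.

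Union peaks shared at least 1 bp. There were 14558 on autosomes, and 1251 near the 24 longest runs of N were dropped. Motifs were sought in GRCh37 sequence on both strands within 100 bp of centres. Genes came from GENCODE 44 lifted to GRCh37. Members were compared with other union peaks by two-sided Fisher exact tests with Benjamini-Hochberg adjustment; intervals are exact (Clopper-Pearson) at 95%. The statistics were tested on simulated data in which each peak was drawn independently. The simulation thus does not cover the dependence between neighbouring peaks of a cluster. The design foresaw a peak score; widths of at least 200 bp served as the stricter threshold instead. Mitochondrial matches came from BLAST 2.17.0 at an E-value of 1e-10. Tools were Python 3.11.15, pandas 2.3.3, scipy 1.17.1, statsmodels 0.14.6 and samtools 1.23.1.

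The members, and the 16 gene lists with 319 of 327 entries matched to an autosomal TSS, were chosen with earlier results of these data known. Named clusters were the 12 with most peaks, the 3 widest and the 3 densest outside repeat-like clusters, and the 3 largest repeat-like ones, plus up to 3 genes per list by member peaks; other names are marked in the text or listed for completeness. Alternatives covered stitching, size, width, overlap, gap margin, list, GC content, promoter limit and gene assignment.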

Additional observations from a re-analysis of the deposited data

How the results depend on the processing

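The lower share of the AP-1 element in members kept its direction and passed the test under all 16 alternatives. Differences ran from -42.3 to -8.00 percentage points, with a highest adjusted p of 0.0258 (Fisher exact test, peaks at least 200 bp wide). Apart from the alternative with 1 member per cluster, the tests take neighbouring peaks as independent, so their p-values are too small. The difference in TEAD share reversed without the gap margin (9.92 points, past the test), with clusters of at least 3 peaks (0.000108), with peaks at least 200 bp wide (0.921), with 1 member per cluster (0.946) and without clusters of over 10 peaks (0.139), and was -4.69 points and past the test with stitching within 5 kb. The promoter difference reversed with stitching within 5 kb (0.616) and with peaks at least 200 bp wide (0.291), and passed the test with stitching within 25 kb (-1.50), without the gap margin (-3.44), stratified by GC content (-2.32) and with promoters within 5 kb (-4.08). The intergenic difference of 8.19 points with 1 member per cluster no longer passed. Directions that differ between settings without passing are not calls, and the causes were not tested.

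Counts follow the rule. Stitching within 5 kb gave 95 clusters, 538 members, a median span of 5.6 kb and 225 genes; within 25 kb it gave 438, 2372, 28.95 kb and 1133. At least 3 peaks gave 653 clusters, 2472 members, 10.65 kb and 1462 genes, with 59.2% of members in both lists; at least 5 peaks gave 80, 601, 17.9 kb and 257. Peaks at least 200 bp wide gave 51 clusters, 222 members, 17.15 kb and 150 genes, with 56.8% in both lists. The Fra-1 list alone gave 104 clusters, 582 members and 227 genes. Without the gap margin there were 2294 members, 68.5% of them in both lists, and without words found elsewhere 745. The share in both lists was 58.7% at a reciprocal overlap of 50% and 70.3% with centres within 500 bp. Genes numbered 105 with a TSS within 10 kb and 247 by nearest TSS. Depth is unknown, so a missing peak says nothing about binding. No paired analysis was possible because each antibody has 1 list.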
